A study of Mus musculus with 6 samples.

Results

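The cartilage proteoglycan aggrecan, its link protein, the matrilins and 4 further cartilage matrix genes were examined in tibial articular cartilage and subchondral bone of Frzb-/- and wild-type mice. The set holds 10 genes, Acan, Hapln1, Matn1, Matn2, Matn3, Matn4, Cilp, Cilp2, Chad and Cnmd, chosen by name among 13817 genes that had a probe set of their own. Every member was measured. Together they had 15 of the 30618 probe sets, 4 for Hapln1, 2 each for Matn2 and Matn3 and 1 for each of the other 7 genes. The Frzb-/- mice (animals 14 and 17) lack frizzled-related protein, a secreted antagonist of WNT ligands, in all tissues, and were compared with 3 wild-type mice (animals 6-1, 8-1 and 9-1). All were male, 6 weeks old and on the C57Bl/6J background, and each array held RNA from a single joint. The tibial plateau was dissected at the growth plate, so a sample holds articular cartilage, bone with its marrow and the upper growth plate.

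Another mouse labelled Frzb-/- (animal 6) is shown apart. According to the study, a presumed knockout whose array grouped with those of the wild-type mice was re-genotyped as heterozygous and left out, and its animal number was not given. Of the mice labelled Frzb-/-, animal 6 alone had such an array. Its Pearson correlation over all probe sets was 0.983 to 0.991 to the wild-type arrays, compared with 0.940 to 0.957 to the arrays of animals 14 and 17. Its Frzb value did not follow that pattern. Frzb was read by 2 probe sets, and at the brighter one it had a log2 value of 7.02 and 6.42 in animals 14 and 17 and of 6.93 in animal 6, against 10.02, 10.79 and 10.16 in wild-type mice. At the dimmer one the values were 5.22 and 4.92 in animals 14 and 17 and 5.34 in animal 6, against 8.12, 8.96 and 8.08. Only the grouping of its array thus matched the account of the re-genotyped mouse, whereas its Frzb values were near those of animals 14 and 17. No label names animal 6 as that mouse. Since it was set apart by its array, differences between it and animals 14 and 17 are given as descriptions. Median values per array lay between 7.32 and 7.45. The tissue label was borne out by the brightest values in the tables, as Col2a1 of cartilage had log2 values of at least 14.56 and Col1a1 of bone of at least 14.53 on every array. Skeletal muscle genes were bright as well, with Acta1 lowest at 13.85, in animal 6.

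Aggrecan is the large chondroitin sulphate proteoglycan that gives cartilage its resistance to compression. Many aggrecan molecules bind along a strand of hyaluronan, and the link protein Hapln1 locks each of them in place. Matrilins are oligomeric proteins with von Willebrand factor A domains that connect collagen fibrils, aggrecan and other matrix molecules. Matn1 and Matn3 are largely restricted to cartilage, whereas Matn2 and Matn4 are found in many connective tissues. Cilp and Cilp2 are secreted glycoproteins, and Cilp was first found in the middle zone of human articular cartilage. Chad, chondroadherin, is a leucine-rich repeat protein that binds collagen and integrins, and Cnmd, chondromodulin, is a transmembrane precursor whose secreted part restrains vessel growth.

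Sequences before the start sites are shown for Matn4 and Cilp2, the genes with the largest rises for which a window was found. RefSeq sequences of GRCm38.p6 gave windows for 9 of the 10 genes, all but Matn2, with 2 for Matn4. Each shows the 250 bases upstream of a start site, 5′ to 3′ on the gene's own strand. The windows of Matn4 lie on the minus strand at chr2:164404819-164405068 and chr2:164405161-164405410, and that of Cilp2 on the minus strand at chr8:69887393-69887642. Matn4 lies on the chromosome of Frzb, with 84.0 Mb between their windows. Capitals mark the match to a SOX motif.
Matn4, first window: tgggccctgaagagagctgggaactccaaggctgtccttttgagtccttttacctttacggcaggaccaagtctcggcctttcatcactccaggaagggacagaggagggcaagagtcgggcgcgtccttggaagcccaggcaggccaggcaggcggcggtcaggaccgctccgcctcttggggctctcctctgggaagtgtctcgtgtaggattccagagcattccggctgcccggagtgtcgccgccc
Matn4, second window: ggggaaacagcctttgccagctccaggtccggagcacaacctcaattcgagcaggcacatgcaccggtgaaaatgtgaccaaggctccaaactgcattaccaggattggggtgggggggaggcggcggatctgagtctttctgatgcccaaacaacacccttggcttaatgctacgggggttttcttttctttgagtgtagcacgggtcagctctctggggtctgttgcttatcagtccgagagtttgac
Cilp2: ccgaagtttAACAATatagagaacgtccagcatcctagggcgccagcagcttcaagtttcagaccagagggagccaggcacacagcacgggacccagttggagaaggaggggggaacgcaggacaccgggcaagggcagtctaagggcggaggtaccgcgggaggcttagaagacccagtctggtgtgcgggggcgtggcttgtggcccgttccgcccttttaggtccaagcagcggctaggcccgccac
Both strands were searched. The letters for TCF/LEF, the transcription factors of canonical WNT signalling, were CTTTGAT or CTTTGTT or else CTTTGAA. Those for SOX factors were AACAAT or else ACAATG, which can overlap in a stretch that holds both. For the TATA box they were TATAAA. No TCF/LEF motif was found in the 10 windows, whereas 12.0% of all 32851 windows held at least 1. A SOX motif was found in 1 of the 10, that of Cilp2, beside 16.2% of all windows, and a TATA box in 1 of the 10, that of Chad, beside 12.4% of all windows. A match is a description of the letters only.

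Of the set Matn4, Matn2 and Cilp2 were higher in the Frzb-/- mice, and none was lower. Differences were tested with limma (moderated, two-sided), and passing required an adjusted p under 0.01, by Benjamini-Hochberg over all probe sets, together with a log2 fold change beyond 1 in size. Where a gene was read by more than 1 probe set, the brightest on average over the 6 arrays stood for it. By this rule 3 of 10 genes were higher and 0 lower, beside 3.03% higher and 6.02% lower among all genes. By probe sets, 4 of 15 were higher and 0 lower, beside 2.34% higher and 5.09% lower among all probe sets. At an unadjusted p under 0.05 limma gave 5 of the 10 higher and 1 lower, beside 21.0% higher and 20.6% lower among all genes and 12006 of the 30618 probe sets in either direction. The median log2 fold change of the 10 genes was 0.41, beside 0.04 for all genes. The arrays of animals 14 and 17 lay wholly above those of the wild-type mice for 6 of the 10 genes and wholly below for 0, whereas 31.0% and 28.1% of all genes did so. Each sample is a piece of several tissues, so fewer cells of a type and less RNA per cell cannot be told apart. Precision is limited by the number of mice.

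**Figure D1:**
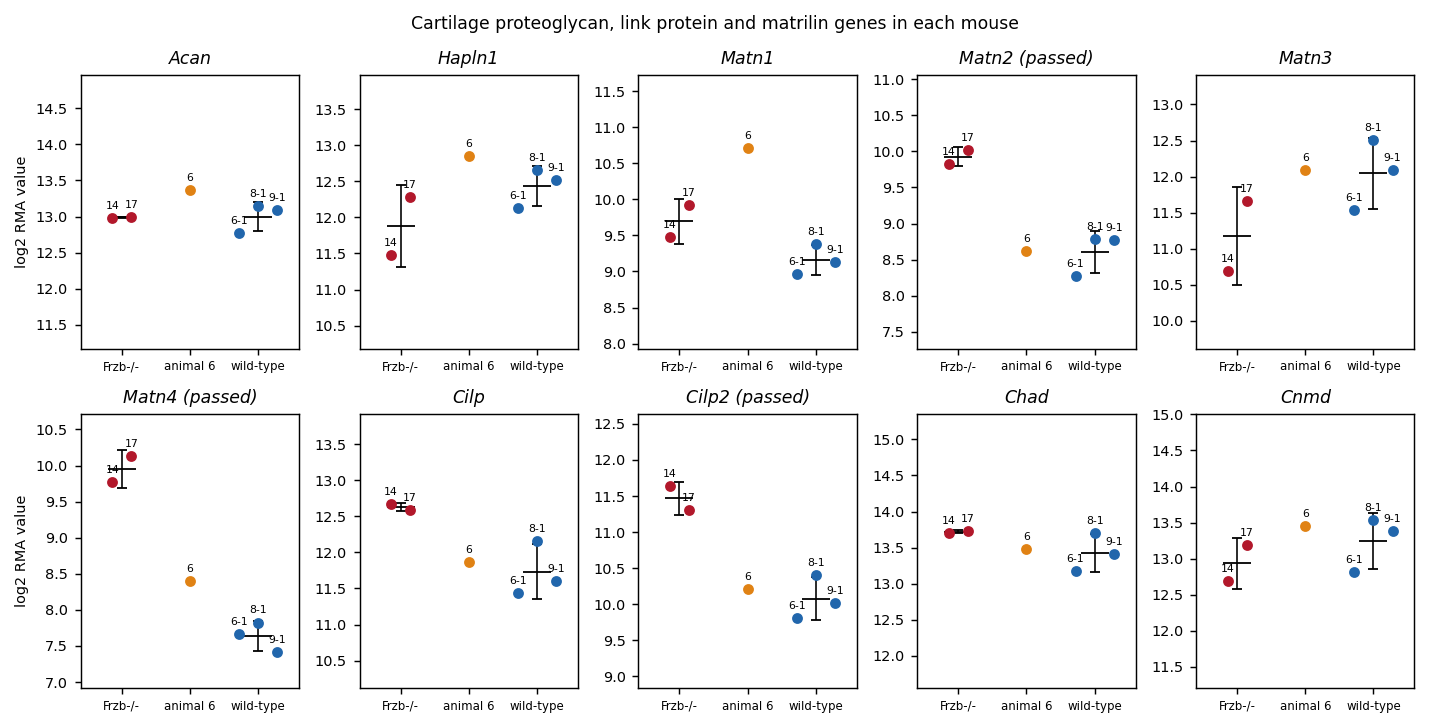
Log2 RMA value of each of the 10 genes at its probe set with the highest mean, by group on the horizontal axis, with the animal above each point and black bars for the mean ± SD of the 2 Frzb-/- and the 3 wild-type mice. Every panel spans the same number of log2 units. Points of the Frzb-/- and wild-type mice are apart for Matn4, Matn2, Cilp2, Cilp, Matn1 and Chad and overlap for the other 4 genes.

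Among the matrilins, Matn4 had the largest difference of the set. Its log2 value was 9.77 in animal 14 and 10.14 in animal 17, against 7.67, 7.82 and 7.42 in the wild-type mice 6-1, 8-1 and 9-1. Both Frzb-/- mice lay far above the highest wild-type mouse, and the groups did not overlap. The mean was 9.95 ± 0.26 (SD, n = 2) in Frzb-/- mice and 7.64 ± 0.21 (SD, n = 3) in wild-type mice. The log2 fold change of Matn4 was 2.31 (SE 0.17, adjusted p = 0.000994), which is 4.98-fold. Animal 6 had a value of 8.40, above the wild-type mice and below the other labelled mice. Matn4 passed without each of the 5 mice in turn, with log2 fold changes of 2.13 to 2.50 (adjusted p = 0.00226 to 0.00934).

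Matn2 was read by 2 probe sets, and both passed. At the brighter one (1455978_a_at) the log2 value was 9.83 and 10.02 in animals 14 and 17, against 8.27, 8.79 and 8.77 in wild-type mice 6-1, 8-1 and 9-1. Animal 6 had 8.62 and so lay among the wild-type mice. The difference was 1.31 (SE 0.19, adjusted p = 0.00371). The dimmer one (1419442_at) had values that were 9.60 and 9.49 in animals 14 and 17 and 8.02, 8.20 and 7.96 in wild-type mice. They differed by 1.48 (SE 0.13, adjusted p = 0.00108), and animal 6 had 8.41, just above the wild-type mice. The probe sets thus gave the same direction and call, although they are not independent replicates. The dimmer one passed without each mouse in turn (adjusted p = 0.00273 to 0.0094). The brighter one did not pass without wild-type mouse 8-1, animal 14 or animal 17 (adjusted p = 0.00585 to 0.0314 over the 5 fits).

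The cartilage matrilins Matn1 and Matn3 did not pass. Matn1, the first matrilin described and long known as cartilage matrix protein, had log2 values of 9.47 and 9.92 in animals 14 and 17, against 8.96, 9.38 and 9.14 in wild-type mice. The groups did not overlap, although animal 14 lay just above wild-type mouse 8-1. The difference of Matn1 was 0.54 (SE 0.19, adjusted p = 0.0768). The highest Matn1 value of the 6 arrays was that of animal 6, at 10.71. Fitted as its own group, it lay 1.55 log2 units above the wild-type mice (95% limits 0.99 to 2.11, adjusted p = 0.332, unadjusted p = 0.000334 in limma's fit across all probe sets). That fit takes the spread of animal 6 from the other mice and called 0 of the 30618 probe sets, although 2197 had an unadjusted p under 0.05.

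Matn3, the matrilin mutated in a form of human multiple epiphyseal dysplasia, had a negative difference. At its brighter probe set (1422148_at) the log2 value was 10.70 in animal 14 and 11.66 in animal 17, against 11.53, 12.50 and 12.10 in wild-type mice. Animal 14 lay below all wild-type mice and animal 17 above wild-type mouse 6-1, so the groups overlapped. On the log2 scale the difference was -0.86 (SE 0.35, adjusted p = 0.119), with 95% limits of -1.70 to -0.02. It was -0.38 without animal 14 and -1.34 without animal 17, and Matn3 passed in none of the 5 fits that left out a mouse (adjusted p = 0.0615 to 0.495). The other probe set (1455948_x_at) gave -0.35 (SE 0.18, adjusted p = 0.192). Its name marks probes that can match other transcripts as well. Of the 4 matrilins, 2 were higher, 0 were lower and 2 did not pass.

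**Figure D2:**
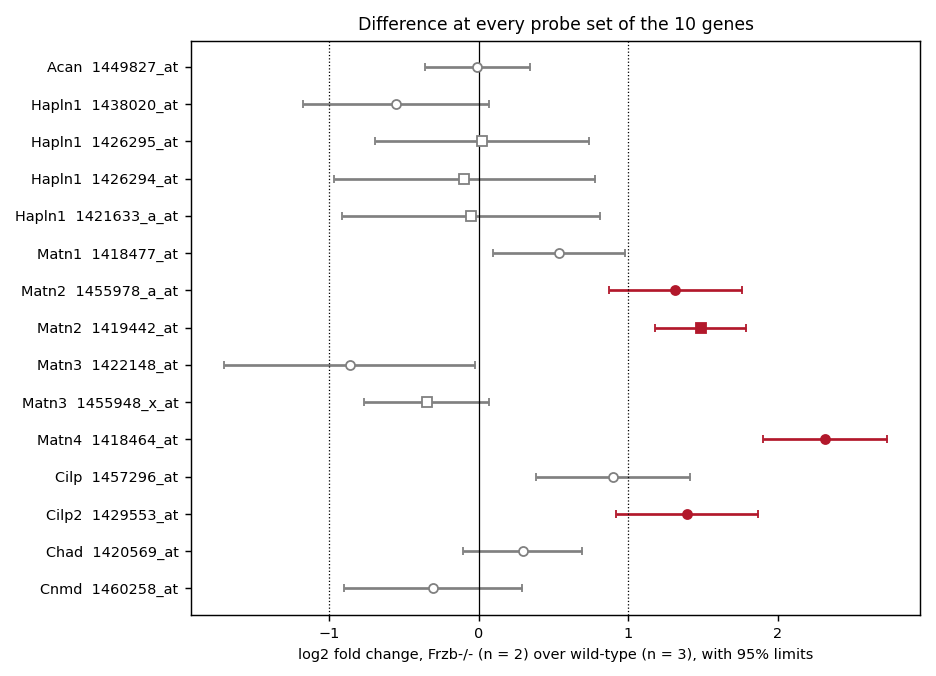
Log2 fold change of Frzb-/- (n = 2) over wild-type (n = 3) mice at each of the 15 probe sets, with 95% limits from limma. Circles are the probe sets that stand for a gene, squares the others, filled symbols passed the test, and dotted lines mark a log2 fold change of 1 in either direction. The filled symbols, of Matn2, Matn4 and Cilp2, lie between 1.31 and 2.31.

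Of the intermediate layer proteins, Cilp2 passed and Cilp did not. Cilp2 had log2 values of 11.63 and 11.31 in animals 14 and 17, against 9.81, 10.41 and 10.02 in wild-type mice. All Frzb-/- values were above all wild-type values, and animal 6, at 10.22, lay among the wild-type mice. The mean was 11.47 ± 0.23 (SD, n = 2) in Frzb-/- mice and 10.08 ± 0.30 (SD, n = 3) in wild-type mice. They differed by 1.39 on the log2 scale (SE 0.20, adjusted p = 0.00394), which is 2.62-fold. Cilp2 passed without wild-type mouse 8-1 and not without any of the other 4 mice, at log2 fold changes of 1.23 to 1.55 (adjusted p = 0.00835 to 0.0254).

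Cilp had log2 values of 12.67 and 12.59 in animals 14 and 17, against 11.44, 12.16 and 11.60 in wild-type mice. The groups were apart here too, and animal 6, at 11.87, lay within the wild-type range. The log2 fold change of 0.90 (SE 0.22, adjusted p = 0.0245) missed both limits, and its 95% limits were 0.38 to 1.41. In all 5 fits that left out a mouse Cilp did not pass (adjusted p = 0.0109 to 0.0992).

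The proteoglycan aggregate itself did not pass. Acan, the core protein of aggrecan, had log2 values of 12.98 and 12.99 in animals 14 and 17, against 12.77, 13.14 and 13.09 in wild-type mice. Both Frzb-/- mice lay within the wild-type range, and animal 6 had the highest value, 13.37. The log2 fold change was -0.01 (SE 0.15, adjusted p = 0.966), and its 95% limits of -0.36 to 0.34 leave room for a change of up to that size. Its sign turned in several alternatives and is not a direction.

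Hapln1, which fixes aggrecan to hyaluronan, was read by 4 probe sets, and none passed. At the brightest one (1438020_at) the log2 value was 11.48 and 12.28 in animals 14 and 17, against 12.13, 12.65 and 12.52 in wild-type mice and 12.85 in animal 6. Animal 14 was lowest, and animal 17 lay above wild-type mouse 6-1. Their log2 difference was -0.56 (SE 0.26, adjusted p = 0.165), with 95% limits of -1.18 to 0.07. It was -0.16 without animal 14 and -0.96 without animal 17 (adjusted p = 0.051 to 0.668 over the 5 fits that left out a mouse). The other probe sets gave -0.10, -0.05 and 0.02, so they did not share a sign. At each of the 4, animal 17 had a higher value than animal 14, by 0.75 to 1.18 log2 units, whereas the wild-type mice ranged over 0.53 to 1.09 log2 units.

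Chad, the collagen-binding leucine-rich repeat protein, had log2 values of 13.71 and 13.73 in animals 14 and 17, against 13.18, 13.70 and 13.41 in wild-type mice. Although the Frzb-/- mice were above all wild-type mice, wild-type mouse 8-1 had nearly the value of animal 14. Chad differed by 0.29 (SE 0.17, adjusted p = 0.249). Cnmd had log2 values of 12.69 and 13.19 in animals 14 and 17, against 12.81, 13.54 and 13.39 in wild-type mice. These overlapped, and the log2 fold change was -0.31 (SE 0.25, adjusted p = 0.409). Animal 6 lay within the wild-type range for both, at 13.48 and 13.46.

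To ask whether the members changed unequally, each was set against Acan on the same array. A level of a probe set cannot be compared with that of another, but the change of their ratio between groups can. Relative to Acan, Matn4 lay 2.14 and 2.51 log2 units above the wild-type mean in animals 14 and 17, whereas the wild-type mice spread from -0.31 to 0.26. Cilp2 lay 1.57 and 1.23 above, Matn2 1.23 and 1.41 above and Cilp 0.95 and 0.86 above. Matn3 lay at -1.33 and -0.38 from the wild-type mean in animals 14 and 17, and Hapln1 at -0.94 and -0.15. Of the 9 ratios, 6 were wholly higher in the Frzb-/- mice and 2 wholly lower, beside 21.9% and 23.5% of all genes set against Acan. Each gene was read here at its brightest probe set, and for Hapln1 the result depended on that choice. Its other probe sets had log2 fold changes of -0.10, -0.05 and 0.02, close to the -0.01 of Acan. Relative to Acan, the groups overlapped at each of them. With 10 arrangements of 5 arrays, the exact two-sided permutation test cannot go below p = 0.1. That value was reached by 7 ratios, with an adjusted p of 0.129 over the 9, so none passed. Chad had p = 0.2 and Cnmd p = 0.3 in the exact permutation test.

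**Figure D3:**
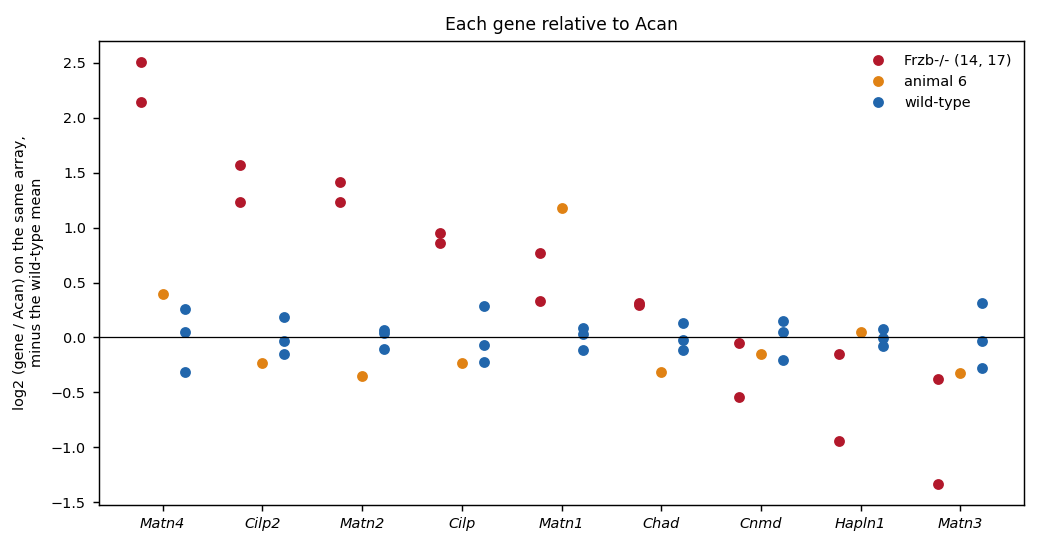
Log2 ratio of each gene to Acan on the same array, minus the mean of the 3 wild-type mice, with 1 point per mouse and the genes in order of the difference. Each gene is read at its probe set with the highest mean, and Hapln1 is not apart at its others. Matn4, Cilp2, Matn2 and Cilp lie above all wild-type points in animals 14 and 17, Hapln1 and Matn3 lie below them, and Matn1 is highest in animal 6.

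When all 3 labelled mice were taken as 1 group, no member passed and limma called 0 of the 30618 probe sets, although 3534 had an unadjusted p under 0.05. An unadjusted p under 0.05 was found for 3 of the 10 genes, all higher, beside 7.71% of all genes higher at that level. They were Matn4 (log2 fold change 1.80), Matn1 (0.87) and Cilp2 (0.97), each with an adjusted p of 0.428 from limma. Against the wild-type mice alone, animal 6 lay within their range for 6 of the 10 genes and above it for 4, Acan, Hapln1, Matn1 and Matn4. Among all genes, 45.1% lay within and 27.3% above. For Matn4 the difference of animal 6 was 0.76 log2 units (95% limits 0.24 to 1.29, adjusted p = 0.678 from limma). Cilp2, Cilp and the brighter Matn2 probe set were within 0.14 log2 units of the wild-type mean in animal 6, whereas the dimmer Matn2 probe set was 0.35 above it and outside the wild-type range. The values of Matn4, Matn2, Cilp, Cilp2 and Chad were all lower in animal 6 than in animals 14 and 17, whereas those of Acan, Hapln1, Matn1, Matn3 and Cnmd were higher.

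The wild-type mice also differed from each other in a shared way, a pattern seen only after the values had been examined. Wild-type mouse 6-1 had the lowest and 8-1 the highest value of the 3 for 9 of the 10 genes, and the exception was Matn4, which was lowest in 9-1. This order held for 16.5% of all genes. It held for 5 of 6 cartilage collagens and for 6 of 9 other chondrocyte genes. Among the 10 genes the distance from 6-1 to 8-1 was largest for Matn3, at 11.53 and 12.50, taking the probe set that stands for each gene.

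Genes that work with the members, or are related to them, were taken from 6 lists of 55 genes, of which 52 were measured. In all, 7 of the 52 were higher and 1 lower, beside 3.03% higher and 6.02% lower among all genes. Their median log2 fold change was 0.34, beside 0.04 for all genes. The count of higher genes was 4 without wild-type mouse 8-1, a fit in which higher calls over all probe sets fell to 298 from 717. With animal 14 or 17 left out, 1 Frzb-/- mouse remained, and higher calls fell in these lists and over all probe sets. Of 6 cartilage collagens, 0 passed limma's test and 0 had an unadjusted p under 0.05. Their log2 fold changes lay between -0.22 and 0.03, with Col2a1 at 0.03 and Col11a1 at -0.04. Of 9 other chondrocyte genes 0 passed either, and limma gave 1 higher and 1 lower at an unadjusted p under 0.05. The shares of all genes at that level were 21.0% and 20.6%. The median of these 9 genes was 0.05. They included Snorc, a cartilage proteoglycan of the cell membrane (0.09), and Cytl1, a secreted protein of chondrocytes (0.42).

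Among 12 genes of hyaluronan and its binding proteins, 3 were higher and 1 lower, beside 3.03% and 6.02% of all genes. Versican (Vcan), the relative of aggrecan found in soft connective tissue, had log2 values of 10.02 and 9.75 in animals 14 and 17, against 8.04, 8.01 and 8.02 in wild-type mice. The log2 fold change was 1.86 (SE 0.13, adjusted p = 0.000938), and animal 6 had 8.78. The hyaluronan synthase Has1 and the lymphatic hyaluronan receptor Lyve1 were higher too, at 1.01 and 1.42 (adjusted p = 0.00745 and 0.00482). Both were chosen here after their values were seen. The count of higher genes in this list was 1 on leaving out wild-type mouse 6-1, animal 14 or animal 17. Stab2, a hyaluronan receptor of sinusoidal endothelium, was lower, at -1.95 (adjusted p = 0.00185), a call that was lost without animal 17. Cd44, the common cell surface receptor for hyaluronan, had a log2 fold change of -0.11 (adjusted p = 0.588).

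Of 9 genes for enzymes that cut aggrecan or related matrix, and their inhibitor Timp3, 2 were higher and 0 lower, with 5 higher and 0 lower at an unadjusted p under 0.05 from limma. Among all genes 21.0% were higher and 20.6% lower at that level. Those that passed were the serine protease Htra1 (1.14, adjusted p = 0.00216) and the stromelysin Mmp3 (1.20, adjusted p = 0.00234). Both lost the call without animal 14 and without animal 17. Timp3, which inhibits aggrecanases, had 0.89 (adjusted p = 0.0106) and did not pass. Of 8 adaptors of the collagen network 2 were higher, the small leucine-rich proteoglycans Lum (1.01, adjusted p = 0.00246) and Ogn (1.25, adjusted p = 0.0046), and 0 lower, with 6 higher and 0 lower at an unadjusted p under 0.05 from limma. Neither Lum nor Ogn passed on leaving out animal 14, animal 17 or wild-type mouse 8-1, while the list's count was 1 without 9-1. Comp and Fmod had 0.24 and 0.49. Of 8 relatives of the members 0 passed, with 3 higher at an unadjusted p under 0.05 from limma. The relative of Cnmd, Tnmd of tendon, had a log2 fold change of 1.48 with a wide spread (SE 0.33, adjusted p = 0.0179).

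Markers of other cell types moved in the same arrays as the members, and their part in the differences of Matn4, Matn2 and Cilp2 was not tested. Of 7 fibroblast markers 4 were higher and 0 lower, including Col14a1 (2.26) and Dpt (1.77). Pi16, a marker of adventitial fibroblasts named here after its values were seen, went the other way at -0.89 (adjusted p = 0.00887) and missed only the limit on the fold. Pdgfra (0.75, adjusted p = 0.00917) and Col3a1 (0.70, adjusted p = 0.0084) missed only that limit too, in the higher direction. The count of 4 was 1 without wild-type mouse 8-1, animal 14 or animal 17. The sum of their linear values was 36893 to 39937 in animals 14 and 17, 22975 in animal 6 and 18892 to 22243 in wild-type mice. Of 5 tendon markers 1 was higher, Thbs4 (1.25), and the sums were 8924 to 10464 in animals 14 and 17, 3493 in animal 6 and 3003 to 5518 in wild-type mice. Of 5 smooth muscle markers 3 were higher, among them Myh11 (1.79) and Tagln (1.44), with sums of 18194 to 18335 in animals 14 and 17, 7591 in animal 6 and 7444 to 9722 in wild-type mice. Of 2 adipocyte markers measured, Adipoq passed (1.21), with sums of 6210 to 6397 in animals 14 and 17, 2119 in animal 6 and 2075 to 3591 in wild-type mice. Of 5 markers of the superficial zone of articular cartilage 1 was higher, the transcription factor Creb5 (1.45), and the lubricin gene Prg4 had 0.85 (adjusted p = 0.0164). Their sums were 29026 to 31096 in animals 14 and 17, 21835 in animal 6 and 14040 to 21296 in wild-type mice. On leaving out wild-type mouse 6-1, 3 tendon and 2 adipocyte markers were higher, and on leaving out any of the other 4 mice 0 were. The smooth muscle count was 0 without animal 17, and the superficial zone count was 1 without wild-type mouse 8-1 and 0 without any of the other 4 mice. Before adjustment, limma's p was below 0.05 with a higher value for 5 of 5 tendon, 5 of 5 smooth muscle and 6 of 7 fibroblast markers. The same held for 2 of 2 adipocyte and 4 of 5 superficial zone markers. In the lower direction it held for 1 fibroblast marker, Pi16. Of all genes, 21.0% were higher and 20.6% lower by that limit. Log2 fold changes of the tendon markers ranged from 0.48 to 1.57. No marker sum can be 0, since the RMA values hold no zeros and no detection calls. Each sum mostly follows the brightest genes of its list. In animal 14 these were Col3a1 for fibroblasts (log2 value 14.77) and Col1a1 for osteoblasts and osteocytes (14.87). A sum is therefore not a measure of cell content.

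Blood cell markers were lower in animals 14 and 17. All 5 erythroid and all 8 neutrophil markers measured passed, and 3 of 5 B cell markers. Without animal 17 the neutrophil count was 2 and the erythroid count 4, and without wild-type mouse 8-1 the neutrophil count was 5. The neutrophil sum was 23856 to 33267 in animals 14 and 17, 99791 in animal 6 and 86407 to 115115 in wild-type mice, whereas the erythroid sum was 2551 to 3758 in animals 14 and 17, 22659 in animal 6 and 16675 to 23452 in wild-type mice. For B cells the sum was 702 to 1012 in animals 14 and 17, 3298 in animal 6 and 2550 to 3630 in wild-type mice. Of 7 markers of osteoblasts and osteocytes 2 were lower, Sost (-2.57) and Mepe (-1.59), which osteocytes secrete, and 0 were lower without animal 17. Their list had sums of 33534 to 38841 in animals 14 and 17, 38549 in animal 6 and 32989 to 35263 in wild-type mice. No endothelial marker passed limma's test among 5, with 4 higher at an unadjusted p under 0.05, and sums of 2834 to 2914 in animals 14 and 17, 1809 in animal 6 and 1608 to 2179 in wild-type mice. Of 5 markers of hypertrophic chondrocytes 0 passed, while limma gave 2 higher at an unadjusted p under 0.05. Their sums were 19711 to 22736 in animals 14 and 17, 25943 in animal 6 and 14665 to 16867 in wild-type mice. Skeletal muscle markers, 0 of 5 of which passed and 0 of which had an unadjusted p under 0.05 from limma, summed to 80712 to 97398 in animals 14 and 17, 42293 in animal 6 and 63811 to 95486 in wild-type mice.

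**Figure D4:**
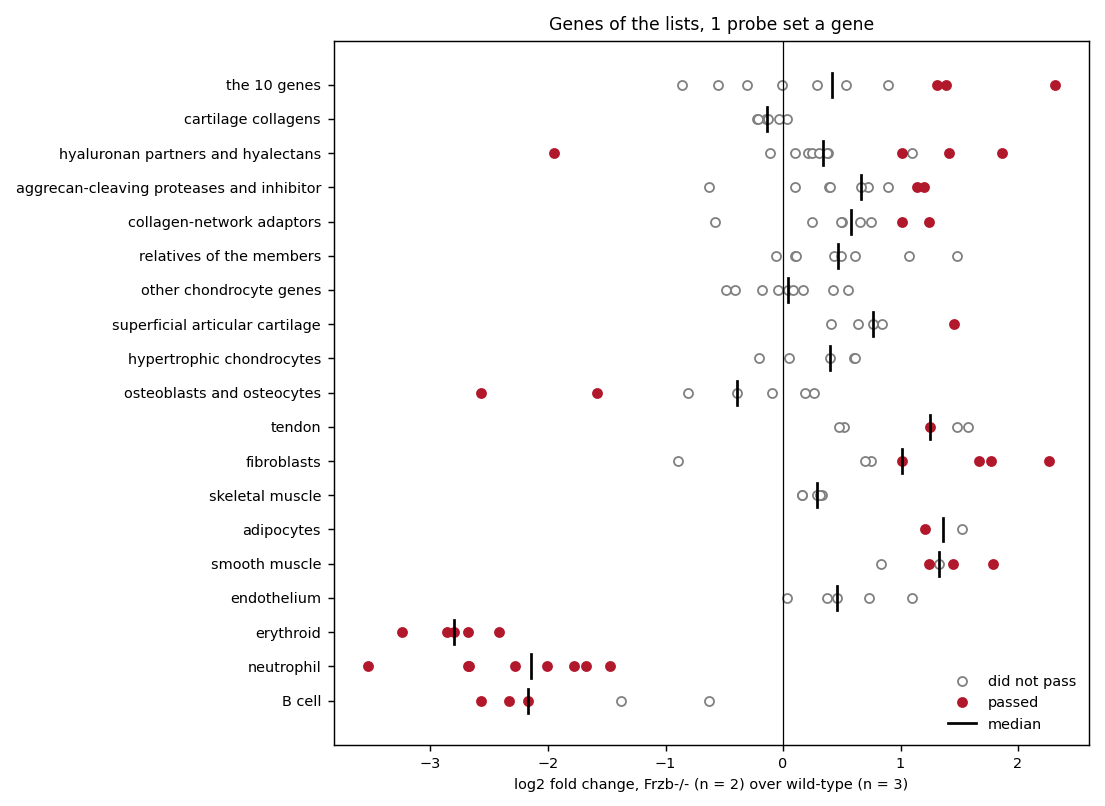
Log2 fold change of Frzb-/- (n = 2) over wild-type (n = 3) mice for the 10 genes (top row) and for each gene of the 18 lists, with filled points for genes that passed and a black line at each median. The 10 genes spread from -0.86 to 2.31, and the cartilage collagens lie between -0.22 and 0.03.

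Over the 6 arrays, the genes whose values were most like those of Matn4 by Pearson's r were Phldb2, Selenom and Ttc8 (r = 0.997, 0.996 and 0.996). For Matn2 they were Abca5, Usp27x and Vps37d (r = 0.997, 0.995 and 0.994), and for Cilp2 they were Rtn1, Abca1 and Prkd1 (r = 0.999, 0.998 and 0.997). These are descriptions over 6 arrays that share the split between animals 14 and 17 and the rest. With so few arrays such values are common, and 580, 272 and 596 genes had r above 0.95 with Matn4, Matn2 and Cilp2. Of the 9 genes named, Phldb2 and Prkd1 passed the test, with log2 fold changes of 1.15 and 1.24.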

How the data were processed

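RNA of tibial cartilage and bone pieces was hybridised to Affymetrix mouse expression arrays, 1 per mouse. The authors took out absent and control probe sets and made log2 expression values by RMA (affy 1.20.0, per the labels), a method that subtracts background, aligns the arrays' quantiles and summarises probes. Their detection calls were not part of the values used. These deposited log2 values were used unchanged for all 30618 probe sets. The annotation gave a single gene for 25090, several for 677 and none for 4851, and only the first kind was used for genes. Of 124 list entries 8 had no single-gene probe set.

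On 5 arrays, lmFit and eBayes of limma 3.58.1 (R 4.3.3) gave two-sided p, adjusted by Benjamini-Hochberg over all probe sets and read at the study's thresholds of 0.01 and a log2 fold change of 1. Python 3.11.15 was used with scipy 1.17.1, pandas 2.3.3, matplotlib 3.10.9 and numpy 2.4.6. Tested on simulated data for this comparison with 30618 probe sets, the fit called 67 of 100 probe sets shifted by 1.5, 95 of 100 shifted by 3 and 1 of those not shifted. In the data 12006 probe sets had an unadjusted p under 0.05 from limma, far more than were shifted in the simulation. The adjustment differs with that number, so these call rates need not hold for the data. Arrays have no read depth. The mice are separate animals.

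Named were all members, Frzb, and for each called member the 3 genes most like it. From the lists, genes were named mainly among the 2 called with the largest change and the 2 brightest. Not all of those are given, and a few other genes were named after their values were seen. The members, lists and rules were chosen with earlier results of these data known. Alternatives were to take all 3 labelled mice as knockouts, to leave out each mouse, cyclic loess, centring on 6 cartilage collagens, probe sets above the median, trended and robust moderation, array weights, an adjusted p under 0.05 without a fold limit, and averaging the probe sets of a gene.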

Additional observations from a re-analysis of the deposited data

How the results depend on the processing

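The count of members higher was 3. It was 0 with all 3 labelled mice, 1 to 2 on leaving out a mouse (1 without animal 14 or 17, where 1 Frzb-/- mouse is assumed to vary like the others), and 3 or 4 elsewhere. No alternative gave a member lower. Leaving out a wild-type mouse also lowered the calls over all probe sets. Beside 717 higher and 1558 lower, they were 570 and 1234 without 6-1, 298 and 676 without 8-1, and 558 and 1310 without 9-1. Lost calls in those fits were thus not particular to the genes named here. Of the 190 values of members' log2 fold changes under the alternatives, 161 kept direction and call, 11 lost the call and 2 gained it, Cilp at 1.01 after centring on the cartilage collagens and at an adjusted p under 0.05. The other 16 turned sign, all in Acan or Hapln1, which did not pass in any fit. Restricting to probe sets above the median, trended and robust moderation, and the adjusted p under 0.05 leave the log2 fold change unchanged. Direction could not turn there. On leaving out a mouse Acan gave -0.13 to 0.060, and the Hapln1 probe sets gave -0.35 to 0.40 (1426295_at), -0.51 to 0.32 (1426294_at) and -0.64 to 0.54 (1421633_a_at). Acan gave 0.12 with all 3 labelled mice and 0.11 after centring. The probe set 1426294_at gave 0.17 with all 3 labelled mice and 0.021 after centring, 1421633_a_at gave 0.16 and 0.066, and 1426295_at gave -0.12 with array weights. The cause was not tested. Centring also changed limma's p-values, not only the fold changes. Matn4 then had an adjusted p of 9.0e-20, beside 0.000994. Matn3 (1422148_at) had 0.0194, beside 0.119, although its log2 fold change shrank to -0.74 from -0.86. The call of Cilp after centring rests on those p-values as well as on the shift. All 54 values of the ratios to Acan kept their direction. For the 8 of 9 ratios whose groups were wholly apart, leaving out a mouse could not have turned it.

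The 52 genes of the pathway lists gave 7 higher and 1 lower. With all 3 labelled mice there were 0 and 0. Leaving out a mouse gave 1 to 6 higher and 0 to 1 lower (1 higher without animal 14 or 17, 0 lower without animal 17), centring gave 11 higher, and an adjusted p under 0.05 gave 15 higher. Centring moved the median of all genes to 0.16, beside 0.04, and the share of higher probe sets among those called to 45.5% (1245 higher, 1494 lower), beside 31.5% (717 higher, 1558 lower). The counts called after centring carry the changed p-values described above as well as the shift. No paired analysis was possible because the labels give each mouse its own number. The number of arrays, with 2 Frzb-/- mice, limits precision.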

Other observations

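In animal 6 the high value of Matn1 stood beside high values of hypertrophic growth plate genes, which were chosen for this comparison after the values were seen. Col10a1, the collagen of hypertrophic cartilage, had log2 values of 13.05 in animal 6 and 11.42 and 12.56 in animals 14 and 17, against 11.50, 11.74 and 10.93 in wild-type mice. Ihh, the hedgehog ligand of prehypertrophic chondrocytes, had 8.34 in animal 6 and 7.00 and 7.58 in animals 14 and 17, against 7.31, 7.58 and 7.57 in wild-type mice. Mmp13 had 13.25 in animal 6, below the 13.41 and 13.33 of animals 14 and 17. Alpl had 11.97 in animal 6, beside 11.91 and 11.79 in animals 14 and 17, and Panx3 had 11.73, beside 11.03 and 11.38. All 5 hypertrophic markers were higher in animal 6 than in every wild-type mouse, whereas animal 6 was above the wild-type range for 27.3% of all genes. Animal 6 is a single array, and no test was made of these values together.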
